A study of Mus musculus with 6 samples.

Results

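The genes described here are those that were strongly lower in every KO library of a muscle in which both genes of the histone variant H2A.Z had been deleted by a Cre of muscle fibres. They were chosen by their values: a gene had to reach at least 1 CPM (counts scaled to a common library total) in each WT library, and its highest KO library had to lie at or under 0.4 times its lowest WT library. Of 28510 genes in the table, 11614 met the WT minimum, and 42 of these, 0.362%, met the limit. Since the same libraries chose the genes, their differences between WT and KO are given as a description, without a test.

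The study sequenced RNA of the tibialis anterior, which lies along the shin, in 3 WT and 3 KO samples, all from C57BL/6 mice aged 12 months. The WT samples carried floxed alleles of both H2A.Z genes, H2A-Z.1flox/flox at one and H2A-Z.2 flox/flox at the other, and no Cre, so they are floxed controls. The KO samples carried deletions of both genes, as H2A-Z.1-/- with H2A-Z.2-/-, through HSA Cre, a recombinase whose human skeletal actin promoter is active in muscle fibres and not in the other cells of the muscle. Total counts ran from 35456883 in WT replicate 2 to 102919416 in KO replicate 3. Whether the samples are separate animals is not in the labels, and p-values here measure only how these samples spread, which may be technical. Muscle fibre genes were abundant in every library: the summed level of 8 fibre markers was 201987 to 227849 CPM in WT and 159872 to 201813 CPM in KO. Mitochondrially encoded genes took 19.9% to 25.5% of the counts in the WT libraries and 21.7%, 32.1% and 22.02% in KO replicates 1 to 3.

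H2A.Z takes the place of the ordinary histone H2A in a small part of the nucleosomes, above all those beside the start sites of genes, and is put there by remodelling complexes that use ATP. It is encoded in the mouse by a pair of genes, H2afz for H2A-Z.1 and H2afv for H2A-Z.2. Promoters of mammalian genes differ in their content of CpG, a cytosine followed by a guanine: many genes that are active in most tissues have promoters rich in CpG, and many tissue-specific genes have promoters that are poor in it.

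The loss was partial in each of the 42 genes. No gene lacked counts in a KO library: the lowest count was 10, against 51 for the lowest count in a WT library. The mean KO level was 6.36% to 37.7% of the mean WT level, with a median of 23.2%, while the median over all 11614 genes was 109%. One gene, 1700001O22Rik, was left at under 10% of WT, 15 genes including it were left at under 20%, and 17 were left at 25% or more. On the TMM scale of edgeR, the log2 fold changes of KO over WT ran from -4.18 to -1.62 with a median of -2.30, beside a median of 0.01 for all genes tested. In whole muscle, fewer cells of a type and less RNA per cell cannot be told apart. Markers of several other cell types were higher in KO: the summed level was 323 to 480 CPM in WT and 571 to 1140 CPM in KO for fibroblasts and adipogenic progenitors (3 of 5 risen in edgeR), 74.6 to 128 and 177 to 366 CPM for tendon (3 of 4 risen) and 80.6 to 109 and 104 to 156 CPM for adipocytes (4 of 5 risen, sums that overlap). Not all lists rose. Of 5 endothelial markers 0 rose and 1 fell, with sums of 173 to 189 CPM in WT and 159 to 182 CPM in KO. Of 4 smooth muscle and pericyte markers 0 rose and 0 fell, with sums of 355 to 438 and 480 to 616 CPM. Of the 8 fibre markers 0 rose and 1 fell, and their sum was lower in every KO library than in any WT library. The part of these cell types in the levels of the 42 genes was not tested.

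**Figure D1:**
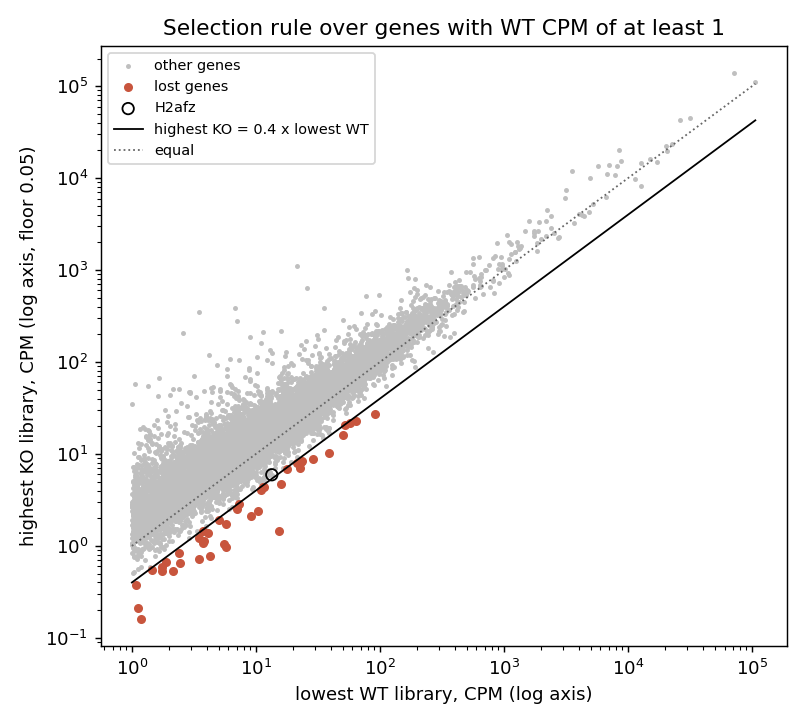
Lowest WT library (x axis) against highest KO library (y axis) in CPM, both on log axes, for the 11614 genes with at least 1 CPM in each WT library. The 42 lost genes (red) lie on or under the solid line, where the KO value is 0.4 times the WT value, none has a lowest WT library above 90.6 CPM, and H2afz (open circle) lies just above the line at 0.442.

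The set was small beside the reverse change. With the groups exchanged, 218 of 12205 genes, 1.79%, had their highest WT library at or under 0.4 times their lowest KO library. This contrast depends in size on the scaling, since the median log2 fold change over all genes tested was 0.01 with TMM and 0.22 with library totals: with TMM-scaled CPM, 60 genes were lost and 167 gained. All KO libraries lay below all WT libraries for 15.2% of the 11614 genes, and in edgeR 12.4% of 16628 genes tested fell at an adjusted p below 0.05, among them each of the 42, from which nothing is read because the rule used the same contrast. The highest value that the lowest WT library of a lost gene took was 90.6 CPM, in Spns2. A lowest WT library above this was found for 801 genes, and the lowest ratio among those was 0.458. Nothing is read from their absence, since the mark was taken from the set itself and only 0.362% of the 11614 genes met the rule.

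The limit of 0.4 fell within a continuous range. Just inside it lay Kif3c at a ratio of 0.394, Tle6 at 0.392, Nhs at 0.387, Odf3l2 at 0.386 and Tmem37 at 0.384. Just outside lay Pctp at 0.413, Mier2 at 0.415, Ybx2 at 0.421 and Prrg2 and Zfp367, both at 0.422. Of the 42 genes, 1 had a ratio of at most 0.1, 6 of at most 0.2 and 15 of at most 0.3, and a limit of 0.5 would have taken 87 genes.

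The targeted genes fell on either side of the limit. H2afv, in the set, stood at 17.6, 15.8 and 18.3 CPM in WT replicates 1 to 3 and at 4.68, 3.93 and 4.73 CPM in KO replicates 1 to 3, a ratio of 0.2996. H2afz stood at 17.1, 15.7 and 13.4 CPM in WT and at 5.94, 4.32 and 4.66 CPM in KO, a ratio of 0.442, and ranked 55th of the 11614 genes. Both were low in every KO library without being absent, and 14 genes of the set had a lower ratio than H2afv.

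Both genes of the set that act on muscle growth belong to 1 pathway. Mstn encodes myostatin, a secreted inhibitor of muscle growth, and Wfikkn2 encodes an extracellular protein that binds myostatin and blocks it. Mstn stood at 64.0, 78.9 and 82.3 CPM in WT and at 13.7, 23.0 and 15.6 CPM in KO, 4.31-fold lower. Wfikkn2 stood at 11.3, 11.1 and 17.1 CPM in WT and at 3.57, 2.18 and 4.04 CPM in KO, 4.02-fold lower. The ligand and its inhibitor were left at 23.2% and 24.9% of WT. The likeness of these shares is not read as a joint change, since the rule kept every gene of the set low. The median share over the set was 23.2%, with a range of 6.36% to 37.7%.

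Genes of transcription and signalling made up 7 of the 42. Dach2, a transcriptional repressor that links the nerve supply of a fibre to its synaptic genes, stood at 4.27, 5.53 and 4.43 CPM in WT and at 0.373, 0.786 and 0.583 CPM in KO, 8.17-fold lower. Wnk3-ps, which the reference annotation names Wnk3, a kinase gene of ion transport, stood at 5.57, 6.99 and 5.80 CPM in WT and at 0.769, 1.06 and 0.583 CPM in KO. Pard6b, of the cell polarity complex, stood at 1.13, 1.86 and 1.44 CPM in WT and at 0.158, 0.209 and 0.194 CPM in KO, from 13 to 20 counts. These 3 were left at 12.2%, 13.1% and 12.7% of WT, the lowest shares of the 7.

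Spns2, which exports the lipid signal sphingosine phosphate, had the highest WT count level of all 42, at 90.6, 91.7 and 123.0 CPM. Its KO libraries held 27.4, 19.7 and 25.8 CPM, 4.19-fold lower. The kinase gene Nek6, which acts in mitosis, stood at 26.1, 33.4 and 23.1 CPM in WT and at 8.17, 8.25 and 7.11 CPM in KO, and its relative Nek5 had a WT mean of 1.20 ± 0.205 CPM and a KO mean of 0.305 ± 0.0664 CPM (SD, n = 3 each). Tle6, a relative of the Groucho corepressors known for its role in the egg, had the mildest loss of the set. It stood at 3.76, 3.72 and 3.77 CPM in WT and at 1.40, 1.46 and 1.38 CPM in KO, 37.7% of WT, and met the limit through the small spread of its libraries.

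Of the 42 genes, 5 encode proteins of membranes and vesicles, and some of them are known mainly from neurons. Syt3, a synaptotagmin that senses calcium at membranes, stood at 3.67, 3.47 and 4.50 CPM in WT and at 0.566, 0.562 and 0.729 CPM in KO, 6.27-fold lower. Plekhb1, a membrane-binding protein with a pleckstrin homology domain, stood at 39.0, 44.6 and 52.1 CPM in WT and at 10.4, 9.68 and 8.22 CPM in KO, 4.80-fold lower. Syngr1, the vesicle protein synaptogyrin, stood at 34.1, 28.6 and 40.5 CPM in WT and at 8.77, 8.78 and 8.26 CPM in KO. The KO libraries were tighter than the WT libraries for Syngr1 and for Tmem37, a protein related to calcium channel gamma subunits, which stood at 65.0, 57.2 and 111 CPM in WT and at 19.96, 19.9 and 21.9 CPM in KO. Cacng7, a relative of the same gamma subunits that regulates glutamate receptors in the brain, was at 8.38 ± 1.73 CPM (SD, n = 3) in the WT samples and 2.19 ± 0.424 CPM (SD, n = 3) in the KO samples. Neuron markers were scarce in both groups: their summed level was 1.42 to 2.48 CPM in WT and 1.77 to 2.91 CPM in KO, and 3 of the 8 were without counts in at least 1 library. Among the 3 that edgeR tested, 0 fell and 1, Snap25, rose (log2 fold change 2.13, SE 0.54, adjusted p = 0.0158). Snap25 was very low in both groups, at 0.136, 0.0846 and 0.0264 CPM in WT and at 0.475, 0.273 and 0.534 CPM in KO. Of 7 markers of Schwann cells, which ensheathe axons, 2 rose and 0 fell, with a summed level of 32.0 to 37.1 CPM in WT and 109 to 141 CPM in KO.

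**Figure D2:**
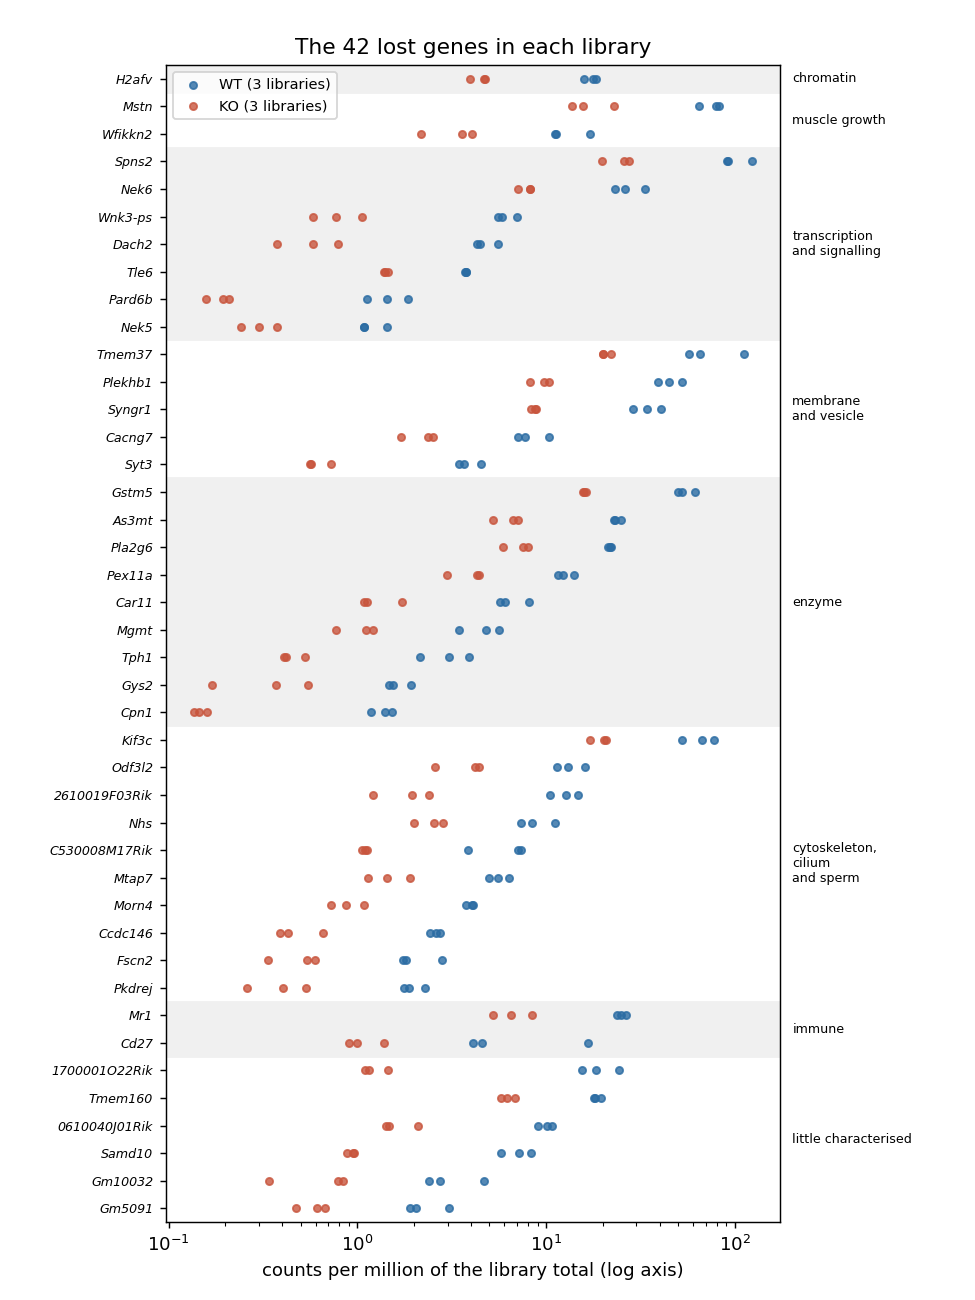
CPM of each of the 42 lost genes (rows, grouped by role as named on the right) on a log axis, with 3 WT libraries in blue and 3 KO libraries in red. The groups do not overlap for any gene, as the rule requires, and the gap is widest for 1700001O22Rik, whose WT libraries lie between 15.4 and 24.4 CPM and KO libraries between 1.10 and 1.46 CPM.

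Enzymes and proteins of metabolism formed a group of 9. Gstm5, a glutathione transferase, stood at 49.9, 52.6 and 61.4 CPM in WT and at 15.7, 16.2 and 15.8 CPM in KO, and Gstm genes are close copies, so reads may be shared among them. As3mt, which methylates arsenic, stood at 22.7, 24.8 and 23.2 CPM in WT and at 5.19, 7.04 and 6.69 CPM in KO. Pla2g6, a phospholipase, stood at 21.3, 21.8 and 22.1 CPM in WT and at 7.55, 5.91 and 7.96 CPM in KO. The 3 were left at 29.1%, 26.8% and 32.9% of WT, with WT libraries that lay close together. Pex11a, which promotes the division of peroxisomes, was left at 30.8%. Mgmt, which repairs alkylated guanine in DNA, was at a WT mean of 4.62 ± 1.08 CPM and a KO mean of 1.03 ± 0.229 CPM, and Car11, a carbonic anhydrase relative without the catalytic activity, at 6.64 ± 1.32 and 1.31 ± 0.356 CPM (SD, n = 3 each).

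Of the enzyme genes, 3 that are known mainly from other organs stood at low levels in WT. Cpn1, the catalytic subunit of carboxypeptidase N, which the liver secretes, stood at 1.40, 1.52 and 1.19 CPM in WT and at 0.136, 0.160 and 0.146 CPM in KO, from 54 to 124 counts per WT library and 10 to 15 per KO library. Tph1, the rate-limiting enzyme of serotonin synthesis outside the brain, stood at 3.04, 3.92 and 2.15 CPM in WT and at 0.407, 0.530 and 0.418 CPM in KO. Gys2, the liver form of glycogen synthase, stood at 1.55, 1.92 and 1.46 CPM in WT and at 0.170, 0.546 and 0.369 CPM in KO, from 15 to 38 counts per KO library. They were left at 10.7%, 14.9% and 21.997% of WT, and the KO libraries of Gys2 spread the most of the 42, at 52.0% of their mean.

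Genes of the cytoskeleton, cilium and sperm numbered 10. Kif3c, a motor of the kinesin family that moves cargo along microtubules, stood at 66.4, 77.0 and 52.6 CPM in WT and at 20.3, 17.1 and 20.7 CPM in KO, 3.38-fold lower. The gene 2610019F03Rik, named Tdrp in the reference annotation for a protein of testis development, stood at 12.8, 14.8 and 10.4 CPM in WT and at 1.21, 2.39 and 1.93 CPM in KO, 6.86-fold lower. C530008M17Rik, which RefSeq names Cracd, a regulator of actin capping, stood at 3.83, 7.08 and 7.32 CPM in WT and at 1.05, 1.09 and 1.12 CPM in KO. WT replicate 1 thus lay well below the other WT libraries for the last gene, while its KO libraries were nearly equal.

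The remaining 7 of this group were left at 19.0% to 27.7% of WT. They were the microtubule protein gene Mtap7 (Map7 in the reference annotation), the actin regulator gene Nhs, the retinal actin-bundling gene Fscn2, the MORN-repeat gene Morn4, the sperm tail relative Odf3l2, the coiled-coil gene Ccdc146 and Pkdrej, a polycystin relative of sperm. Odf3l2 had the highest WT level of them, 13.5 ± 2.34 CPM against 3.74 ± 0.998 CPM in KO, and Pkdrej the lowest, 1.97 ± 0.275 against 0.399 ± 0.137 CPM (SD, n = 3 each).

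The set holds 2 immune genes, Mr1 and Cd27, both lower in KO as the rule requires. Mr1, which presents vitamin metabolites to a class of T cells and is expressed in many tissues, stood at 24.8, 23.6 and 26.5 CPM in WT and at 6.53, 8.44 and 5.22 CPM in KO. Cd27, a receptor of lymphocytes in the tumour necrosis factor family, stood at 4.57, 4.09 and 16.5 CPM in WT and at 1.38, 0.899 and 1.00 CPM in KO. WT replicate 3 held several times the level of the other WT libraries, and its spread of 84.0% of the mean was the highest in WT. Of 9 genes listed as T and B lymphocyte markers, 6 were tested, 2 rose and 0 fell. The summed level was 5.51 to 5.87 CPM in WT and 13.8 to 32.6 CPM in KO, most of it from Ptprc, which marks all leukocytes and stood at 4.30 to 5.22 CPM in WT and 12.1 to 29.3 CPM in KO. Besides Ptprc only Cd4 rose, and each of the other 8 genes was under 0.35 CPM in every WT library. Of 6 macrophage markers tested, 4 rose and 0 fell. Over all genes tested, 13.5% rose and 12.4% fell, so few falls would be found among so few markers in any case. Cd27 overlaps Vamp1 on the opposite strand, and Vamp1 fell with a log2 fold change of -1.03 (SE 0.14, adjusted p = 0.000717 by edgeR). No source used here gives the strand setting of the counting, so reads of the 2 genes could not be told apart.

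The gene with the deepest loss is among the 6 that are little characterised. The protein-coding gene 1700001O22Rik stood at 15.4, 24.4 and 18.4 CPM in WT and at 1.10, 1.46 and 1.15 CPM in KO, 15.7-fold lower, with 865 to 1394 counts per WT library and 91 to 118 per KO library. Samd10, which encodes a protein with a sterile alpha motif, stood at 7.15, 5.78 and 8.32 CPM in WT and at 0.962, 0.883 and 0.942 CPM in KO, 7.63-fold lower. The protein-coding gene 0610040J01Rik stood at 9.09, 10.1 and 10.8 CPM in WT and at 1.47, 2.10 and 1.42 CPM in KO. All 3 were far below WT in every KO library, at 6.36%, 13.1% and 16.7% of its mean. Tmem160, a transmembrane protein gene, was left at 34.0%, and the noncoding genes Gm10032 and Gm5091 at 19.96% and 25.2%.

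In gene class the set resembled the expressed genes. Protein-coding genes were 40 of the 42, 95.2%, against 95.1% of the 11614 genes, and the other 2 were the long noncoding RNAs Gm10032, by the GENCODE annotation, and Gm5091, by RefSeq. By chromosome, 8 of the 42 genes, 19.0%, lay on chromosome 7, against 7.29% of the 11614. They were Syt3, Tph1, Plekhb1, Car11, Mgmt, Cacng7, Tmem160 and Pex11a, and none was the nearest neighbour of another. Chromosomes 2 and 11 held 4 genes each. Per kb of gene, on the authors' normalized scale, the WT level had a median of 448 in the set and 520 over all 11614 genes, and 18 of the 42 lay above the latter. The highest WT levels per kb were those of Gstm5 at 5009 ± 773, Spns2 at 4696 ± 1082 and Tmem37 at 4609 ± 1962, and these 3 did not differ beyond their spread. The lowest were Pkdrej at 21.4 ± 2.01 and Pard6b at 33.1 ± 6.94 (SD, n = 3 each). The share left in KO had a median of 20.2% in the 15 genes with a mean WT level under 5 CPM, 22.3% in the 16 from 5 to under 20 CPM and 26.8% in the 11 at 20 CPM or more.

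Added up over the 42 genes, the level was 697, 754 and 853 CPM in WT replicates 1 to 3 and 187, 192 and 191 CPM in KO replicates 1 to 3. The KO sums were thus nearly equal, at 24.3%, 25.04% and 24.9% of the mean WT sum. WT replicate 1 was the lowest WT library in sum and was the highest WT library for 1 of the 42 genes, Ccdc146, whereas over the 11614 genes it was the highest for 25.5%. WT replicate 3 was the highest for 22 genes, 52.4% against 26.003%, and KO replicate 2 the highest KO library for 23, 54.8% against 33.0%. Within WT, the SD was a median of 17.1% of the mean in the set and 11.3% over all 11614 genes, and within KO 18.4% and 14.7%. The KO library highest for most of the set was also the one with 32.1% mitochondrial counts. As part of the total, these counts lower the CPM of the other genes of that library. With mitochondrial counts left out of the totals of all libraries, 31 of the 42 genes still met the rule. Mstn, Mr1, Cacng7, Gys2, Mtap7, Nhs, Odf3l2, Pex11a, Tle6, Tmem37 and Gm5091 then missed it.

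Most genes that share a symbol stem with a lost gene, and are outside the set, did not pass the test. A stem can group genes that are not close in sequence or function. In 21 families with 22 of the 42 genes, 161 other members were tested. Of these, 17 rose, 10.6%, and 19 fell, 11.8% (edgeR), beside 13.5% and 12.4% of all 16628 genes tested, so both shares were near the background. The 19 include H2afz, which was deleted by design. The median log2 fold change of the relatives was 0.08. Without KO replicate 1, 11 rose and 14 fell.

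For several lost genes a close relative did not pass the test or rose, which does not show that the former were unchanged. Dach1, the other Dach gene, had a WT mean of 4.73 ± 0.519 CPM and a KO mean of 4.63 ± 0.879 CPM (log2 fold change -0.25, SE 0.20, adjusted p = 0.410), whereas Dach2 had 4.74 ± 0.683 and 0.581 ± 0.206 CPM (SD, n = 3 each). Kif3a and Kif3b, the other motor genes of the Kif3 group, had log2 fold changes of 0.04 (SE 0.22) and 0.14 (SE 0.14) and did not pass. Syngr2 had -0.41 (SE 0.20, adjusted p = 0.155), and the polarity genes Pard6a and Pard6g had -0.64 (SE 0.22, adjusted p = 0.051) and 0.44 (SE 0.25, adjusted p = 0.221), none of them past the threshold. Among the 7 other synaptotagmin genes tested, Syt7 and Syt8 rose with log2 fold changes of 1.12 (SE 0.22, adjusted p = 0.00439) and 2.78 (SE 0.78, adjusted p = 0.0237), Syt8 from a mean of 0.0226 CPM, and Syt15 fell by 0.57 (SE 0.19, adjusted p = 0.0481). The p-values are those of edgeR with Benjamini-Hochberg adjustment over all genes tested.

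In other families some relatives fell. Since the lost genes were chosen for deep falls, smaller falls of genes outside the set are partly fixed by the rule. The kinase genes Nek4, at a log2 fold change of -0.78 (SE 0.18), Nek7, at -0.66 (SE 0.18), and Nek9, at -0.82 (SE 0.15), all fell, 3 of 7 relatives of Nek5 and Nek6 tested. Gstm4 fell with -1.56 (SE 0.20), and Gstm1 and Gstm2 had 0.49 (SE 0.22) and 0.77 (SE 0.30) without passing. Of 15 other peroxin genes tested, 4 fell and 0 rose, among them Pex11c at -0.94 (SE 0.20). Pla2g7, a gene of a secreted phospholipase, fell with -2.02 (SE 0.38), from 86.9 ± 33.2 to 24.2 ± 14.4 CPM. Pla2g6 had -1.82. Pla2g7 was outside the set, since its highest KO library at 40.9 CPM was above 0.4 times its lowest WT library at 59.0 CPM. Among microtubule-associated protein genes, Mtap1b and Mtap1a rose with 2.06 (SE 0.17) and 1.22 (SE 0.20) and Mtap9 fell with -1.66 (SE 0.25). Of 26 Plekh genes tested besides Plekhb1, 6 rose and 1 fell.

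**Figure D3:**
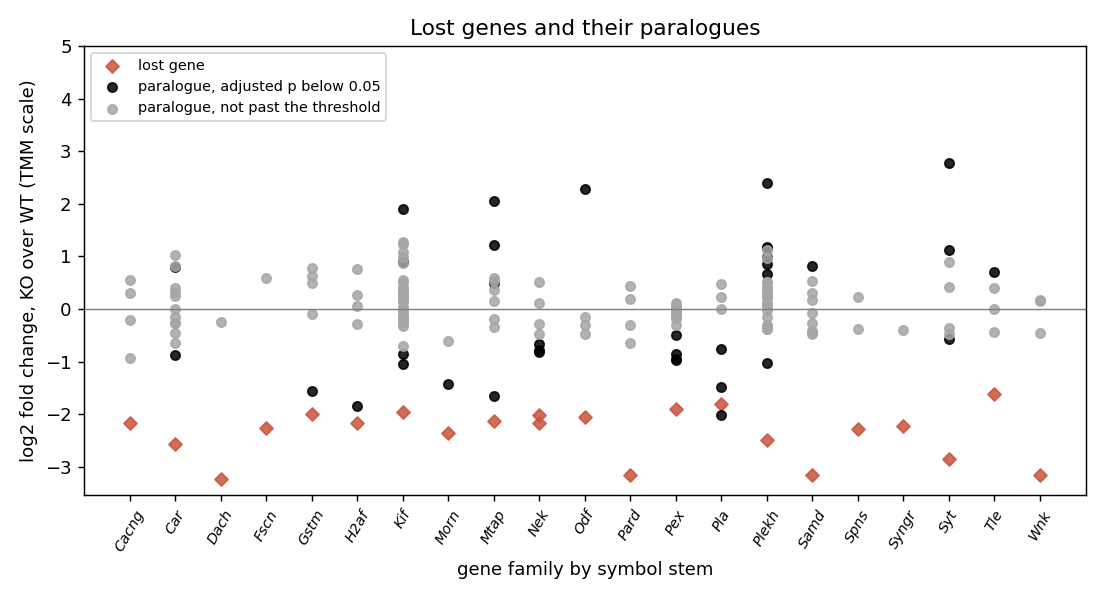
Log2 fold change of KO over WT on the TMM scale (y axis) for the lost genes (red diamonds) and the other tested members of their families (circles, black where edgeR's adjusted p was below 0.05), by family (x axis). The lost genes lie between -3.24 and -1.62 in this plot because they were chosen to be low, while 17 relatives rose and 19 fell of 161.

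Genes beside the lost genes on the chromosome fell in a somewhat larger share than all genes tested and rose in a somewhat smaller one. This difference rests on few genes and was not tested. The nearest gene of the table on each side was taken from the GENCODE annotation for the 41 genes it holds, and 60 of 82 such neighbours were tested. Of these, 11 fell, 18.3%, and 7 rose, 11.7%, against 12.4% and 13.5% of all genes tested, with a median log2 fold change of -0.08 and a lowest value of -1.24. Without KO replicate 1, 5 fell and 5 rose, and the counts over all genes were lower too, at 1168 fallen and 1391 risen. The neighbours that fell with the lowest p were Vamp1, named above, and Shc2, beside Odf3l2, at -1.24 (SE 0.17, adjusted p = 0.000826). Those that rose included Plin1, a lipid droplet gene beside Pex11a, at 1.93 (SE 0.32, adjusted p = 0.00213), and Pion and Fgl2, which both overlap Ccdc146, at 1.10 (SE 0.21, adjusted p = 0.00373) and 1.11 (SE 0.31, adjusted p = 0.0243). The genes on both sides of Plekhb1, Rab6a and Fam168a, had log2 fold changes of -0.11 and 0.01 and did not pass, nor did Ppia beside H2afv at -0.09. Of the 41 genes, 16 overlap an annotated gene on the opposite strand, for 12 of them one with a row in the table.

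The promoters of the lost genes were poor in CpG beside those of the other genes that fell. RefSeq windows of 300 bases, 250 before and 50 after the start, were found for 35 of the 42 genes, and the most upstream window was used for the 8 genes with several. A window was called CpG-rich when its observed-to-expected CpG ratio was above 0.6 and its GC share above 50%. This held for 13 of 35 lost genes, 37.1%, and for 1088 of the 1523 other fallen genes with a window, 71.4%. For the genes just outside the limit, with ratios above 0.4 to 0.5, it held for 24 of 40, 60%. Counting a gene as CpG-rich when any of its windows was gave 42.9%, 75.9% and 60%. No test was made of these shares, because genes are not replicates.

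Other groups could be compared only in part, since fewer than 80% of their genes had a window, which makes the check void for them as whole groups. Windows were found for 78.5% of all 11614 genes, and 70.3% of these were CpG-rich. They were found for 76.7% of the 90 genes that met the reverse limit with at least 1 CPM in each WT library, and 22 of the 69, 31.9%, were CpG-rich. A low share was thus not particular to the lost genes. Among genes with a window and a mean WT level under 5 CPM the shares were 2 of 11 lost genes and 59.2% of all, from 5 to under 20 CPM 5 of 13 and 73.2%, and at 20 CPM or more 6 of 11 and 74.5%.

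**Figure D4:**
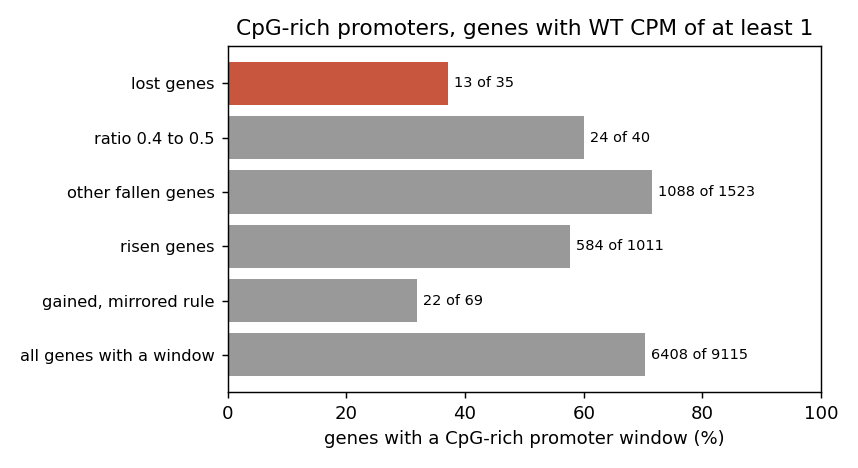
Share of genes with a CpG-rich promoter window in percent (bars from 0, with counts beside them), for the lost genes and for other groups of genes with at least 1 CPM in each WT library. The lost genes stand at 37.1% and the other fallen genes at 71.4%, and the genes gained by the mirrored rule at 31.9%.

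Promoters poor and rich in CpG are shown by the 250 bases before the start of 4 genes, from RefSeq on GRCm38.p6, written 5′ to 3′ on the strand of the gene with each CpG in capitals. The gene with the deepest loss, 1700001O22Rik (chr2:30803665-30803914, minus strand), has 2 CpG, and Mstn (chr1:53061390-53061639, plus strand) has 3. H2afv (chr11:6444444-6444693, minus strand) has 19, and Pard6b (chr2:168080754-168081003, plus strand), which was left at 12.7% of WT, has 43.
1700001O22Rik: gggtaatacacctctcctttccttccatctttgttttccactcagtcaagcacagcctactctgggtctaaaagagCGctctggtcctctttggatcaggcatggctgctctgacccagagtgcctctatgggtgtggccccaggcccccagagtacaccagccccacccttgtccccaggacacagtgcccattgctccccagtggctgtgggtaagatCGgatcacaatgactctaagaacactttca
Mstn: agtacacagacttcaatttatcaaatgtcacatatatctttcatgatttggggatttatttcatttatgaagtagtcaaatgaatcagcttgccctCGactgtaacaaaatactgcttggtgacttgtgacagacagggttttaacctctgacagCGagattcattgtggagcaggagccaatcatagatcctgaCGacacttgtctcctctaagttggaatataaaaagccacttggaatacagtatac
H2afv: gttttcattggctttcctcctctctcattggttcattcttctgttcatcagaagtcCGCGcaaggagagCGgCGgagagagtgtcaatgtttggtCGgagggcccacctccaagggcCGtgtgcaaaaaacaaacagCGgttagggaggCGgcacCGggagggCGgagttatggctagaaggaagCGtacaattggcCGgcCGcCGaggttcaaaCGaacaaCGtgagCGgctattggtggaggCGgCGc
Pard6b: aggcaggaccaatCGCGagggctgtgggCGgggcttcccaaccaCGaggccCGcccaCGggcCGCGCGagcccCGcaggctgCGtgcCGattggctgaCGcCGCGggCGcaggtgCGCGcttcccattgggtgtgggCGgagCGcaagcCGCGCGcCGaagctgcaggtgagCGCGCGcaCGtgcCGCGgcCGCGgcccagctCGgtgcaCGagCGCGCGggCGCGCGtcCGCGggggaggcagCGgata
Over the 35 genes the number of CpG in these bases ran from 0 in Mr1 to 47 in Mtap7, which were left at 27.0% and 26.4% of WT. The share left in KO had a median of 26.4% in the 13 genes with a CpG-rich window and 22.9% in the other 22, and ran from 12.7% to 32.9% and from 6.36% to 37.7%.

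Short motifs were searched on both strands of the 300-base windows. The 9115 windows given beside them cover 78.5% of the expressed genes, so they are no valid background for all of these, and the shares are a description of the windows found. The letters TATAAA, as in the TATA box, were in 6 of 35 windows of the lost genes, 17.1%, against 7.16% of the 9115 windows, and belonged to Dach2, Fscn2, Gstm5, Mstn, Nek6 and Wnk3-ps. In the Mstn promoter above they begin 29 bases before the start, and in that of Wnk3-ps 33 bases before it. In Dach2 and Nek6 the nearest match begins 145 and 206 bases before the start. Fscn2 and Gstm5 have no match on the strand of the gene in the 250 bases before the start. CANNTG, the E-box that myogenic and other basic helix-loop-helix factors bind, was in 80% against 62.6%, and within it CACGTG in 11.4% against 10.7%. CCAAT was in 45.7% against 38.5%, and GGGCGG, the GC box, in 42.9% against 65.5%. TGTTTAC, the forkhead motif, was in 3 windows, 8.57% against 2.44%, and TGACCT, part of a nuclear receptor site, in 3 against 11.8%. TATTTNTA was in 2 windows, against 3.09%, and CCGGAAGT in 1, against 8.68%. TGACGTCA and the longer motifs of NRF1 and MEF2, the last of which holds TATTTNTA, were in 0 of the 35, against 3.42%, 2.172% and 0.483%. A match says only that these letters are in the window. Whether the motifs rich in G and C follow the CpG content of the windows was not tested.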

How the data were processed

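Per the labels' protocols, libraries of 3 WT and 3 KO samples were made with a stranded kit for total RNA depleted of ribosomal RNA. Among the tools listed in the submitters' processing notes are TopHat2 2.0.14, Bowtie and HTSeq 0.6.1, with the mouse build mm9, and no source used here gives their parameters. The deposited table holds raw counts per gene and a normalized signal, which the authors obtained as the count divided by a size factor and by gene length, as recomputed from the table. Columns were assigned to samples by name and groups by the genotype label.

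The members and lists were chosen with earlier results of these data known. Counts were divided by the column total to give CPM, and the rule was applied to these. The test for genes outside the set was the quasi-likelihood test of edgeR 4.0.16 (R 4.3.3) with TMM scaling, filterByExpr and Benjamini-Hochberg adjustment over 16628 genes, called at an adjusted p below 0.05. On simulated counts it recovered 66% of 100 genes changed by a log2 fold change of 1 and 100% of 100 changed by 2, and called 16 unchanged genes of 16229 genes in all. Same-numbered WT and KO samples did not deviate together (correlations 0.0604, 0.0154 and 0.0632), so no block was used.

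Named were the targeted genes, the 4 leading genes of the set, the 10 members with the lowest ratio and the 10 with the highest WT mean, the 5 genes on each side of the limit, every other member by role, and relatives and neighbours with the lowest p, at most 3 a family. A relative that this rule names is not reported here. Relatives that did not pass, the neighbours of Plekhb1 and H2afv, the second overlapping gene of Ccdc146 and the promoters shown were chosen after their values were seen, as was the grouping by CpG. Gene types and neighbours came from GENCODE, to which 26186 of 28510 rows matched by identifier, and promoter windows from RefSeq on GRCm38.p6. 14 symbols that had turned into dates were restored by identifier. Alternatives were other scalings, filters and limits, DESeq2 1.42.0, a replicate block and each library left out.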

Additional observations from a re-analysis of the deposited data

How the results depend on the processing

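The number of lost genes depended most on the limit itself, with 15 genes at a ratio of at most 0.3 and 87 at 0.5. It was 60 with TMM-scaled CPM, 62 with median-of-ratios size factors, 34 without mitochondrial counts in the totals, 49 with a WT minimum of 0.5 CPM and 35 with 2 CPM. Leaving out 1 library gave 48 to 58 genes; all 42 stay by construction, since a dropped library can only ease the limit. H2afz met the rule with TMM-scaled CPM, with median-of-ratios size factors, without WT replicate 3 and without KO replicate 1. The log2 fold changes of the 42 genes ran from -4.31 to -1.41 over 8 settings, with a sign that the rule fixes.

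Leaving out 1 library gave 1391 to 2321 risen and 1168 to 2189 fallen genes, 25 to 39 called relatives and 10 to 19 called neighbours, the lowest of each without KO replicate 1. The other filters, size factors and DESeq2 gave 2055 to 2713 risen and 1715 to 2325 fallen genes, 36 to 49 called relatives and 18 to 21 called neighbours. The numbers did not pair the samples, and with the replicate block 2457 genes rose and 2236 fell, 40 relatives and 19 neighbours were called. Counts of 10 to 20 per KO library limit the precision of Cpn1 and Pard6b, and the strand setting of the counting limits genes that overlap another.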
